A study of Mus musculus with 10 samples.

Results

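The regions described are 6269 islands of histone H3 lysine 27 trimethylation (H3K27me3) that were called in mouse pre-osteoblasts given the EZH2 inhibitor GSK126 and that share no base with any island called in vehicle-treated cells. They were chosen by 1 rule from the 24947 islands of the GSK126 list and the 34498 islands of the vehicle list: an autosome other than chromosomes 6 and 19, a length below 10 kb, and no shared base. On the 17 chromosomes kept, the GSK126 list held 19811 islands, of which 17491 were shorter than 10 kb. The other 11222 of these short islands shared at least 1 base with a vehicle island and are called shared GSK126 islands here. A further 12260 vehicle islands of the same chromosomes and lengths shared no base with the GSK126 list. Since the presence or absence of a call chose the islands, their reads, fold enrichments and adjusted p-values are given as a description without a test.

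All cells were MC3T3, a mouse calvarial pre-osteoblast line, kept in an osteogenic medium of ascorbic acid plus beta glycerol phosphate. One arm received vehicle (DMSO) and the other 5 µM GSK126, first at the switch to that medium and again on day 3, and both were withdrawn on day 6. Chromatin was collected 24 hours after the first dose, with 1 H3K27me3 ChIP library and 1 input library per treatment. RNA-seq followed at days 3, 6 and 10 and has a single library for each treatment at each day, so no RNA library comes from the hour of the ChIP.

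EZH2 is the catalytic subunit of Polycomb repressive complex 2, which writes H3K27me3, and GSK126 competes with its methyl donor. The mark lies over silent genes, above all over CpG-rich promoters of developmental regulators, and in broad low domains between and within inactive genes. SICER, the caller used, joins neighbouring windows with more ChIP reads than a background model allows into an island, so low domains are broken into islands at places set partly by read depth. Its fold enrichment is the ratio of ChIP to input reads after scaling for library size.

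The islands that cover an annotated promoter give the closest view of sequence, and the 5 such promoters under the islands with the highest fold enrichment are shown because they hold both kinds of promoter found in the class. Each line gives the 250 bases before the transcription start from RefSeq (GRCm38.p6, the same assembly as mm10), 5′ to 3′ on the gene's strand, with CpG dinucleotides in capitals. All 5 genes lie on the minus strand, at chr3:107458899-107459148 (Kcnc4), chr9:14903768-14904017 (Izumo1r), chr7:24944772-24945021 (Erfl), chr7:81710142-81710391 (Gm32579) and chr5:113310787-113311036 (Sgsm1).
Kcnc4: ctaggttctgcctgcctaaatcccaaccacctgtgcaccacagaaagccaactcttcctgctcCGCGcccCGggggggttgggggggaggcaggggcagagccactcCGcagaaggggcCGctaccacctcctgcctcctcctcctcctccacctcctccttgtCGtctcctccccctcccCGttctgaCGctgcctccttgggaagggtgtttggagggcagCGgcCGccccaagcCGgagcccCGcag
Izumo1r: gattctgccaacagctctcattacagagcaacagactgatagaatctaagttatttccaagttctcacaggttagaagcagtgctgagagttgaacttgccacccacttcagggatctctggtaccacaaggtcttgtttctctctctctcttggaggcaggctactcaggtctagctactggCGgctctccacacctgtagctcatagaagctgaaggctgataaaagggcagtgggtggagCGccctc
Erfl: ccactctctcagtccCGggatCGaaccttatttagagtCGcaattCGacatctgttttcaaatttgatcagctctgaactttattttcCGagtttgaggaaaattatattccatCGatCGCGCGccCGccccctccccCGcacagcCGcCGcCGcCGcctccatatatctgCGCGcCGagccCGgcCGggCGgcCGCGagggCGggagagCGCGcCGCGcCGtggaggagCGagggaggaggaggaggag
Gm32579: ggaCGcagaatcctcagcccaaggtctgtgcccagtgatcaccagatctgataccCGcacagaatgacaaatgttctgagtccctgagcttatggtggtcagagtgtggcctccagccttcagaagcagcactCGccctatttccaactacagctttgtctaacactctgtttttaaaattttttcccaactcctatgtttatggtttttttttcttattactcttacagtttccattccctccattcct
Sgsm1: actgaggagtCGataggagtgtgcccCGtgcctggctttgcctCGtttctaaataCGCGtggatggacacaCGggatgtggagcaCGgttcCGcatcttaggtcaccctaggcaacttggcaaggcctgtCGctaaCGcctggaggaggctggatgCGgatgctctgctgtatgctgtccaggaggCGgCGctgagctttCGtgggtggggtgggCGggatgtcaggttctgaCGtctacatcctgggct
The Kcnc4 stretch holds 12 CpG, that of Erfl 30 and that of Sgsm1 16, while those of Izumo1r and Gm32579 hold 2 and 3. Over the whole class, 235 promoter windows of 300 bases (250 before the start and 50 after it) from 217 genes lay wholly inside an island, counted over all genes with a RefSeq promoter entry, also those with no row in the deposited gene table. Their median GC content was 48.3% and their median CpG count 3, against 53.0% and 7 over all 28487 windows on these chromosomes. A count of 10 or more CpG was found in 45 of the 235 windows (19.1%), in 204 of 817 windows inside shared GSK126 islands (25.0%), in 185 of 630 windows inside vehicle-only islands (29.4%) and in 44.0% of all windows. Promoters inside the GSK126-only islands were therefore mostly CpG-poor. The letters C and G were searched only as the pair CG, which reads the same on both strands.

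The ChIP signal in each GSK126-only island rested on few reads. Their ChIP read count had a median of 64, with quartiles of 55 and 76 and a range of 28 to 165, over a median length of 4800 bp. Input reads in the same intervals had a median of 54, and the deposited fold enrichment had a median of 2.04 with quartiles of 1.72 and 2.40. Fewer than 100 ChIP reads supported 5917 of the 6269 islands (94.4%). Together the islands cover 31.6 Mb. Vehicle-only islands, from the other library, were smaller still, with medians of 3000 bp and 37 ChIP reads, and 12141 of the 12260 had fewer than 100 ChIP reads. Their median density was 12.8 ChIP reads per kb, not scaled for the depth of the 2 libraries.

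**Figure D1:**
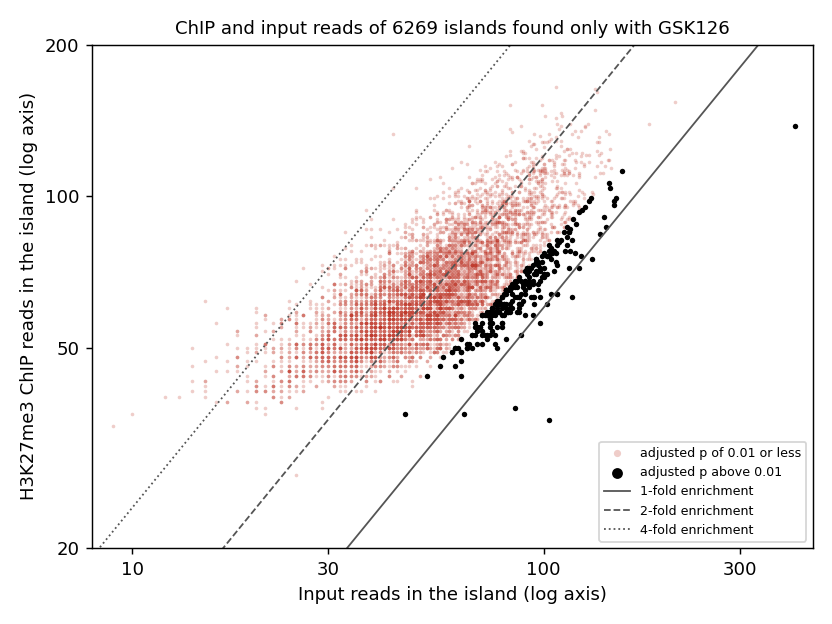
ChIP reads against input reads in each of the 6269 islands found only with GSK126, both on log axes, with lines at 1-, 2- and 4-fold enrichment after library scaling. Most points lie between 40 and 100 ChIP reads around the 2-fold line, and the 247 islands with an adjusted p above 0.01 lie near the 1-fold line.

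Beside shared GSK126 islands, called in the same library, the values were lower but overlapped widely. Shared islands had medians of 76 ChIP reads, 5400 bp and 2.16-fold enrichment. ChIP density was 13.4 reads per kb in GSK126-only and 14.7 in shared islands, and input density was 11.1 and 11.4 reads per kb. The gap was present within length classes too, with medians of 2.02 and 2.15 at 4 to 6 kb and of 1.85 and 2.09 at 8 to 10 kb. In the shortest class, below 2 kb, the order turned, with 3.02-fold over 28 GSK126-only and 2.28-fold over 42 shared islands.

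Weak calls (a fold below 1.5, an adjusted p above 0.01, or a counting interval that reaches 1) were more frequent in the class than among shared islands. A fold below 1.5 was found in 660 islands (10.5%), against 4.71% of shared GSK126 islands and 2.57% of vehicle-only islands. Below 2-fold were 47.1%, 36.6% and 19.6%. The deposited list is not cut on its adjusted p-value: 247 GSK126-only islands (3.94%) had an adjusted p above 0.01, against 1.44% of shared and 2.43% of vehicle-only ones. At the other end, 59.5% had an adjusted p of 1e-06 or less, against 76.9% and 58.1%. The exact 95% counting interval of the fold reached 1 or less in 414 islands (6.60%, against 2.37% and 5.67%) and stayed at 2 or more in 374 (5.97%, against 9.34% and 16.7%). A fold of 3 or more was found in 7.58% of GSK126-only, 7.94% of shared and 31.4% of vehicle-only islands. These intervals cover counting error in 1 ChIP and 1 input library only, and reads are not all independent molecules.

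**Figure D2:**
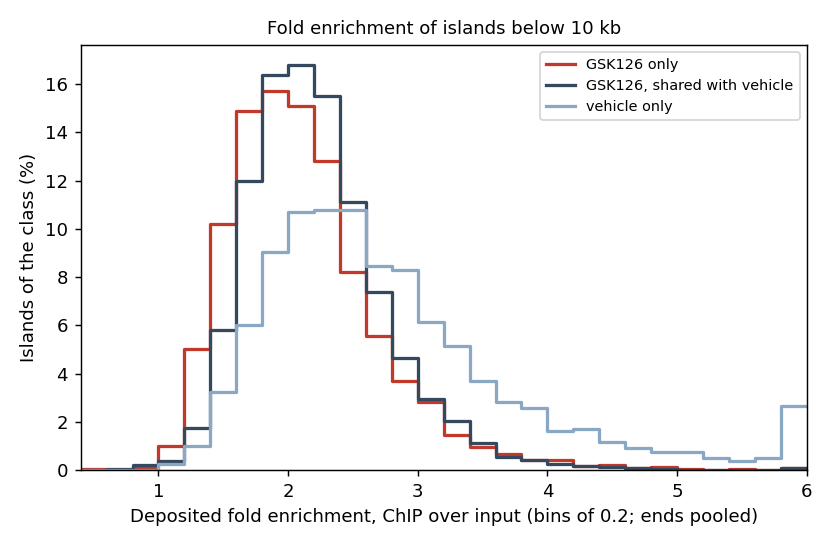
Share of islands below 10 kb (vertical axis, %) by deposited fold enrichment (horizontal axis, bins of 0.2) for GSK126-only islands, shared GSK126 islands and vehicle-only islands. The GSK126-only curve is shifted to the left of the shared curve by less than 1 bin (medians 2.04 and 2.16), and the vehicle-only curve is broader with a median of 2.56.

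The vehicle list differs in depth as well as in treatment. In 417 pairs of islands from the 2 lists that covered each other by 90% or more, input density with GSK126 was 1.24 times that of vehicle and ChIP density 1.1 times. Fold enrichment was lower with GSK126 in 295 of these pairs (70.7%), with medians of 2.18 and 2.52. From the input ratio and the scaling constants of the lists (0.601 and 0.595), the GSK126 ChIP library was estimated to be 1.26 times as deep. Divided by that, the median GSK126-only island had 10.7 ChIP reads per kb and the median shared GSK126 island 11.7. A density lower than 10.7 was found in 7.86% of the vehicle islands of these chromosomes below 10 kb and in 12.5% of vehicle-only islands. Vehicle islands were mostly shorter, and density was higher in short islands, so these shares are not at matched length. The fewest ChIP reads in any island were 27 with GSK126 and 17 with vehicle. Depth and treatment cannot be told apart with 1 library of each kind, and vehicle reads outside the vehicle islands were not analysed here.

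Distances to vehicle islands ranged widely, and few islands adjoined one. The median distance to the nearest vehicle island was 10000 bp, and it was 1 kb or less for 675 islands (10.8%). For 109 islands no base lay between the 2. Islands within 10 kb had a median fold of 2.11 (n = 3135) and those farther away 1.96 (n = 3134). At distances over 100 kb were 713 islands (11.4%), with a median of 1.94. Vehicle-only islands stood in the same relation to the GSK126 list, with a median distance of 9600 bp and 10.4% within 1 kb.

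The edges of the rule showed no break in median fold enrichment. The 424 islands within 600 bp of a vehicle island had a median fold of 2.13 and 63 ChIP reads, and the 395 shared islands with 600 or fewer shared bases had 2.13 and 62. The least overlap in the shared class was 200 bp, 1 window of the caller, as at chr8:61884801-61888200 in Palld (52 ChIP and 18 input reads, 4.81-fold). At the length limit, the longest members were 9800 bp. The 4 of these with the most ChIP reads had 144 to 165 reads and folds of 2.16 to 3.05. Just outside the limit, the 4 unshared islands of 10000 bp with the most ChIP reads had 145 to 158 reads and folds of 1.93 to 2.44. Without that choice by reads, the 106 members of 9 kb or more had medians of 1.83-fold and 117 ChIP reads. In all, 140 unshared islands were 10 kb or longer, with medians of 1.79-fold and 143 ChIP reads over their greater lengths.

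The strongest islands were at a few genes and intergenic sites. Coordinates are 1-based in mm10. The highest fold was at chr3:107455801-107460200, over the promoter and first part of Kcnc4, a voltage-gated potassium channel gene, with 62 ChIP and 15 input reads (6.88-fold, 95% interval 3.87 to 13.0). Kcnc4 had 0 RNA counts in all 6 libraries. Next came chr5:72645001-72646600 near Nipal1, with 35 and 9 reads (6.47-fold), and chr18:84833401-84834800, with 37 and 10 reads (6.16-fold). The island at chr14:63507001-63510800 in Tdh, the gene of L-threonine dehydrogenase, had 50 and 14 reads (5.94-fold). Input density was low in all 4, at 3.41 to 7.14 reads per kb against the class median of 11.1. Input is the denominator of the fold by which they were chosen, so low input was favoured by the choice. ChIP density was near the class median of 13.4 reads per kb at Kcnc4 (14.1) and Tdh (13.2), and above it at the short islands of chromosomes 5 (21.9) and 18 (26.4). By ChIP reads the first was chr11:114971601-114981400 beside Cd300ld, with 165 ChIP and 107 input reads (2.57-fold).

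At the bottom, 11 islands had fewer ChIP reads than the scaled input. The lowest was chr1:88262601-88269800 over Hjurp, the chaperone gene of the centromeric histone, with 138 ChIP and 408 input reads (0.563-fold, interval 0.460 to 0.684). An 800 bp island at chr5:36661001-36661800 in D5Ertd579e had 36 and 103 reads (0.581-fold), the highest input density of the class at 128.8 reads per kb. Another, at chr2:122681401-122682200 in the zinc transporter gene Slc30a4, had 38 and 85 reads (0.744-fold). Each had an adjusted p of 1 in the deposited list. Scaled input exceeded ChIP in all 3.

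Chromosome by chromosome, the ChIP density of the islands hardly moved while the input density did. Median ChIP reads per kb ran from 12.8 on chromosome 14 to 13.7 on chromosomes 4 and 17. Median input reads per kb ran from 8.0 on chromosome 14 to 13.1 on chromosome 17 and 14.4 on chromosome 4. The median fold, which has input in its denominator, ran the opposite way, at 2.54, 1.77 and 1.61 on those 3 chromosomes. Shared islands followed the same order, from 2.72 on chromosome 14 to 1.84 on chromosome 4. The class made up 29.0% of short GSK126 islands on chromosome 11 and 62.1% on chromosome 14, where 105 were unshared and 64 shared. The 2 chromosomes that the rule leaves out had input densities of 13.9 and 14.3 reads per kb in short islands, close to chromosome 4. Chromosome copy number in this line was not tested.

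**Figure D3:**
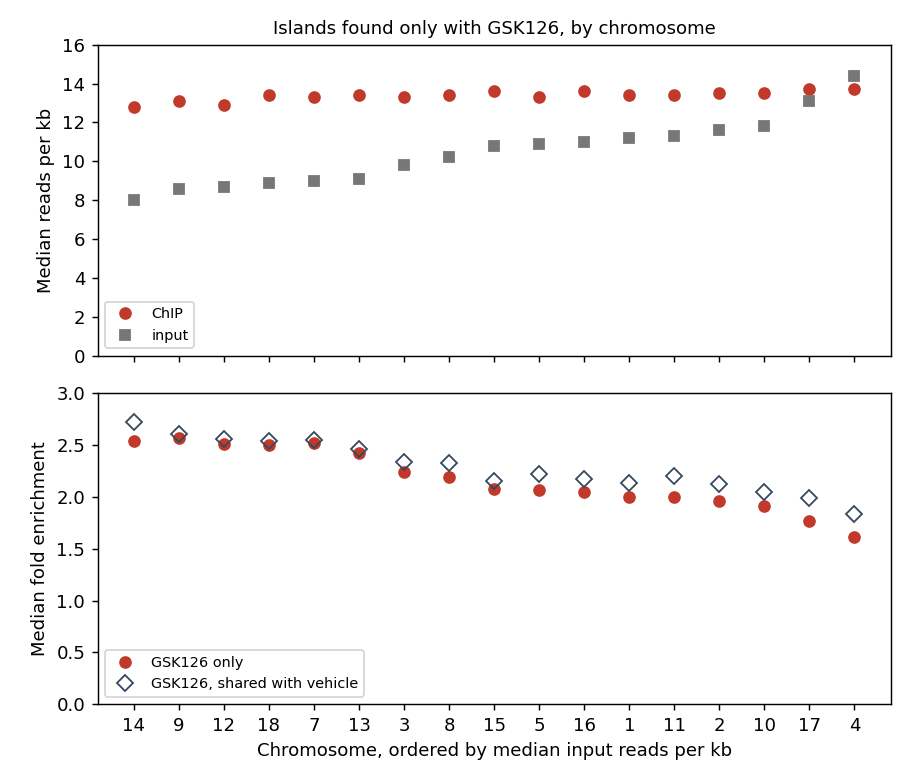
Upper panel, median ChIP and input reads per kb in GSK126-only islands on each of the 17 chromosomes, ordered by input density. Lower panel, median fold enrichment of GSK126-only and shared GSK126 islands on the same chromosomes. ChIP density stays between 12.8 and 13.7 while input rises from 8.0 to 14.4, and the fold falls from 2.54 to 1.61.

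Genes lay under fewer of these islands than under the others. At least 1 base of an annotated gene was covered by 1825 islands (29.1%, exact 95% interval 28.0 to 30.3), against 33.7% of shared GSK126 islands (32.9 to 34.6) and 35.8% of vehicle-only islands (35.0 to 36.7). With 5 kb added to both sides of each gene the shares were 35.6%, 44.1% and 45.0%. RefSeq genes of any kind, a wider set that was added after seeing the data, gave 45.4%, 51.1% and 51.7%, in the same order of classes. As a ratio the difference was larger at transcription starts, where 98 of 6119 islands (1.60%) covered one, against 3.72% of shared and 2.86% of vehicle-only islands. Starts were counted only for genes of the deposited table with a RefSeq promoter entry, a smaller set than that of the promoter windows above. Of such entries chromosome 18 has none in the table used, so starts and promoter windows were counted without it. Most islands in genes were internal, since 1539 (24.5% of the class) lay wholly inside a gene body. The share in genes varied little with fold, from 25.8% below 1.5-fold to 30.3% at 3-fold or more. These intervals treat islands as independent draws, and neighbouring islands are not.

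The 1169 genes under the islands were long and mostly silent. Their median length was 71.0 kb, against 15.0 kb for all genes on these chromosomes. It was 33.8 kb for genes at shared GSK126 islands and 38.3 kb for genes at vehicle-only islands. A long gene is more likely to share a base with any island, so the choice by overlap favours long genes. In the vehicle library of day 3 their median level was 0.00549 RPKM (reads per kilobase, scaled to library size), against 2.63 RPKM for the 16198 genes at no island of either list. A level of 1 RPKM or more was reached by 101 of them (8.64%), against 5.20% of genes at shared GSK126 islands, 5.31% at vehicle-only islands and 56.8% at no island. All 6 libraries had 0 counts for 248 genes (21.2%). The gap to genes at no island was present at matched length: among genes of 150 kb or more 9.71% at GSK126-only islands reached 1 RPKM against 68.6% at no island. The order against shared islands differed between length classes. It was kept among genes of 10 to 50 kb, with 12.2% at GSK126-only against 4.67% at shared islands. It was not kept among the genes of 150 kb or more, with 10.5% at shared islands. Nor was it kept among genes of 50 to 150 kb, with 5.79% at GSK126-only against 6.55% at shared islands. Genes whose islands were all below 1.5-fold were expressed more often, with 23.9% of 67 genes at 1 RPKM or more, against 6.38% of 141 genes with an island of 3-fold or more.

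**Figure D4:**
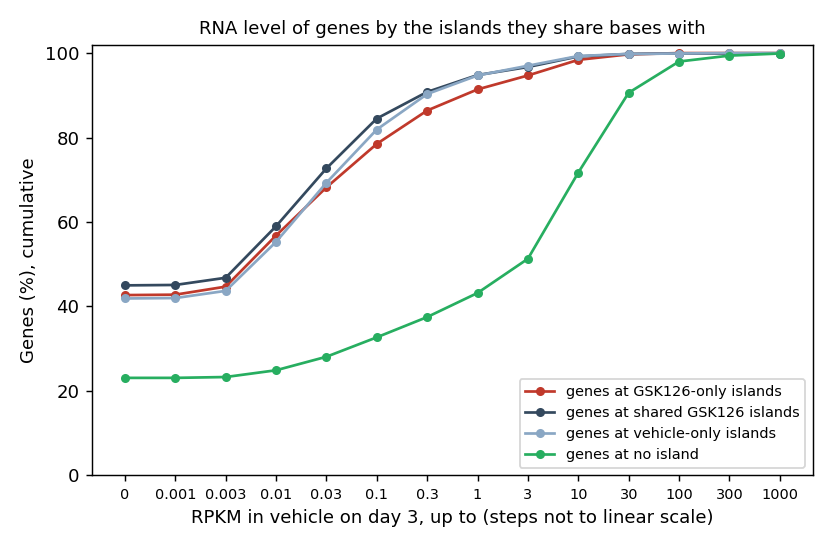
Cumulative share of genes (vertical axis, %) at or below each RPKM value in the vehicle library of day 3 (horizontal axis, unequal steps) for genes at GSK126-only islands, shared GSK126 islands, vehicle-only islands and no island. The 3 curves for genes at islands lie close together and far above the curve for genes at no island, whose median is 2.63 RPKM.

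Most of these genes also held islands of another kind. At least 1 other island of either list overlapped 802 of the 1169 genes (68.6%). The 367 genes with GSK126-only islands alone were shorter, with a median of 23.9 kb, and 15.5% of them reached 1 RPKM. More than 1 GSK126-only island was found in 335 genes, and the 10 with the most are named here. Alk, a receptor tyrosine kinase gene of 735320 bp, held 17, with folds of 1.27 to 3.09. The same gene body held 11 shared GSK126 and 12 vehicle-only islands. L3mbtl4 held 14, Ctnna3, Macrod2 and Park2 held 11 each, and Grip1, Mtus2, Nckap5, Slit3 and Tmem232 held 10 each. Of these 10 genes, Macrod2 alone was above 1 RPKM in vehicle on day 3, at 4.24.

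Expressed genes did occur in the class. The imprinted adaptor gene Grb10 had the highest level, 92.4 RPKM with vehicle and 86.0 RPKM with GSK126 on day 3. It held 2 GSK126-only islands, at chr11:12023801-12027200 (52 ChIP and 36 input reads, 2.40-fold) and chr11:12035601-12039600 (52 and 35 reads, 2.47-fold), 237400 and 249200 bp from the nearest vehicle island. The second covers 1 of its 2 promoter windows. The next highest levels in vehicle on day 3 were those of Ccnd3 (33.8 RPKM), the cyclin D3 gene, Cdk14 (30.4), Scoc (27.8), Tmem5 (25.5), Slc30a4 (22.4), the noncoding RNA gene Tug1 (19.3) and Trim44 (18.6). None of these 8 genes passed the test of GSK126 against vehicle described next (smallest adjusted p, 0.191 for Cdk14, edgeR). Of the 9 GSK126-only islands at these 8 genes, those at Slc30a4 (0.744-fold, interval 0.493 to 1.1) and Trim44 (1.22-fold, 0.880 to 1.7) were weak calls, and the other 7 had folds of 1.59 to 2.82.

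RNA with GSK126 was compared with vehicle over days 3, 6 and 10 by edgeR's quasi-likelihood test with day as a block, adjusted over all 14344 genes tested. This comparison was not used to choose the islands, and in bulk RNA fewer expressing cells cannot be told apart from less RNA per cell. Higher levels with GSK126 were called for 23 of the 456 genes at GSK126-only islands that passed the filter on low counts (5.04%), where the rate over all genes tested was 1.01%. Lower levels were called for 0 of the 456, where the rate over all genes was 0.272%. At an unadjusted p below 0.05, 104 of the 456 were higher (22.8%) and 30 lower (6.58%), beside 9.86% and 9.75% of all genes tested. DESeq2 called 76 higher (12.9%) and 11 lower (1.87%) of the 589 genes to which it gave an adjusted p, beside 4.45% and 3.87% of all such genes. The other 713 genes did not pass the filter, and a gene nearly silent with vehicle can pass it through the GSK126 libraries alone. Such a gene can be called higher but hardly lower, so the shares of higher and lower calls are partly set by the filter. Neither is a share of all 1169, and the excess over all genes tested cannot be read apart from the filter.

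Genes at other islands had like shares of calls: 27 of 605 (4.46%) at shared GSK126 islands, 41 of 838 (4.89%) at vehicle-only islands and 73 of 11365 (0.642%) at no island. The median log2 difference was 0.11 over the 456 genes, 0.22 at shared islands, 0.24 at vehicle-only islands and -0.0008 over all genes tested. Among genes at GSK126-only islands and no others, 3 of 140 were higher (2.14%), the median was -0.04, and 12 were higher and 11 lower at an unadjusted p below 0.05. Where the transcription start lay inside a GSK126-only island, edgeR called 0 of 21 tested genes in either direction, with 3 higher and 2 lower at an unadjusted p below 0.05, and DESeq2 called 1 of 29 higher. Among all genes with a start edgeR called 0.963% higher and 0.241% lower, so a count of 0 of 21 is near that rate. It called 2 of 101 genes higher with the start inside a shared island and 7 of 108 with the start inside a vehicle-only island. The groups hold many of the same genes. Of the 1169 genes at GSK126-only islands, 548 also held a shared GSK126 and 667 a vehicle-only island, as did 14 and 19 of the 23 called. All groups also share the same 6 RNA libraries, so these shares are not independent of each other.

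The 3 called genes with no island of another kind were Slc6a15, Tmtc2 and Angpt1. Slc6a15, a neutral amino acid transporter gene, had 0, 2 and 10 counts in the vehicle libraries of days 3, 6 and 10 and 22, 244 and 184 with GSK126. Every GSK126 library was above every vehicle library (log2 difference 5.29, SE 0.61, edgeR adjusted p = 0.0316). Its 1 island, chr10:103389201-103397000, was a weak call with 89 ChIP and 112 input reads (1.32-fold, interval 0.989 to 1.76), 243400 bp from the nearest vehicle island.

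Tmtc2, which encodes an endoplasmic reticulum glycosyltransferase, had 2, 4 and 10 counts with vehicle and 10, 78 and 128 with GSK126 (log2 difference 3.69, SE 0.46, edgeR adjusted p = 0.0367). Here the lowest GSK126 library, of day 3, equalled the highest vehicle library, of day 10. Its 2 islands had folds of 1.47 and 1.59. Angpt1, the gene of the Tie2 ligand angiopoietin 1, had 26, 22 and 28 counts with vehicle and 148, 320 and 370 with GSK126, without overlap (log2 difference 3.41, SE 0.34, edgeR adjusted p = 0.0251). The island in Angpt1 had 66 ChIP and 73 input reads (1.5-fold). All 4 islands in these 3 genes were below the class median of 2.04-fold.

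The other 20 called genes also held at least 1 other island of either list. Secreted Wnt antagonists were among them. Frzb had 0, 2 and 4 counts with vehicle and 20, 230 and 134 with GSK126 (log2 difference 5.93, SE 0.52, edgeR adjusted p = 0.0212), and its GSK126-only island had 57 ChIP and 46 input reads (2.06-fold). Wif1 had 176, 624 and 916 counts with vehicle and 818, 4288 and 3520 with GSK126 (log2 difference 2.35, SE 0.18, edgeR adjusted p = 0.0184). The Wif1 groups overlapped across days, but GSK126 was higher on each day. Its GSK126-only island had a fold of 2.29, and the gene held 5 shared GSK126 islands besides.

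Of the 13 solute carrier genes at GSK126-only islands that were tested, 4 were called higher, Slc6a15 among them. Slc36a2, a proton-coupled amino acid transporter gene, had 2, 28 and 262 counts with vehicle and 40, 880 and 5436 with GSK126 (log2 difference 4.62, SE 0.18, edgeR adjusted p = 0.00571). Its island, chr11:55160201-55169400, was the one with the most ChIP reads among the 48 islands at called genes, 138 against 88 input reads (2.61-fold). Slc8a3, a sodium-calcium exchanger gene, had 116, 442 and 870 counts with vehicle and 624, 6052 and 8798 with GSK126 (log2 difference 3.27). Slc2a13, a myo-inositol transporter gene, rose by a log2 difference of 1.85, and Tcn2, the gene of the vitamin B12 carrier transcobalamin, by 1.11. Counts of Slc36a2 and Slc8a3 were higher at each later day in both treatments, so libraries of different days overlapped between treatments in these 2 genes.

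The remaining called genes have varied roles. Prex1, a Rac exchange factor gene, had 28, 134 and 410 counts with vehicle and 146, 1570 and 4790 with GSK126 (log2 difference 3.34). Abi3bp, an extracellular matrix gene, had 250, 690 and 1208 counts with vehicle and 1750, 5092 and 5158 with GSK126 (log2 difference 2.62). All 3 GSK126 libraries were above all 3 vehicle libraries for Abi3bp, and not for Prex1. The log2 differences of the others were 5.07 for Frmpd1, 4.08 for Srgap1, 4.03 for Iqgap2, 3.49 for Snap91, 3.14 for Fhl5, 2.75 for Itih5 and 2.39 for Zdhhc2. They were 2.33 for Steap3, 2.19 for Mtus2, 1.61 for Sgk3, 1.24 for the axon guidance gene Sema5a and 1.18 for the kinase gene Camk4. All 23 genes were higher with GSK126 on each of the 3 days, which the test that chose them, with day as a block, largely requires. None of the 15 with a RefSeq start had it inside a GSK126-only island. Only 21 tested genes in all had their start inside such an island, so this count is not read as a trait of the called genes.

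**Figure D5:**
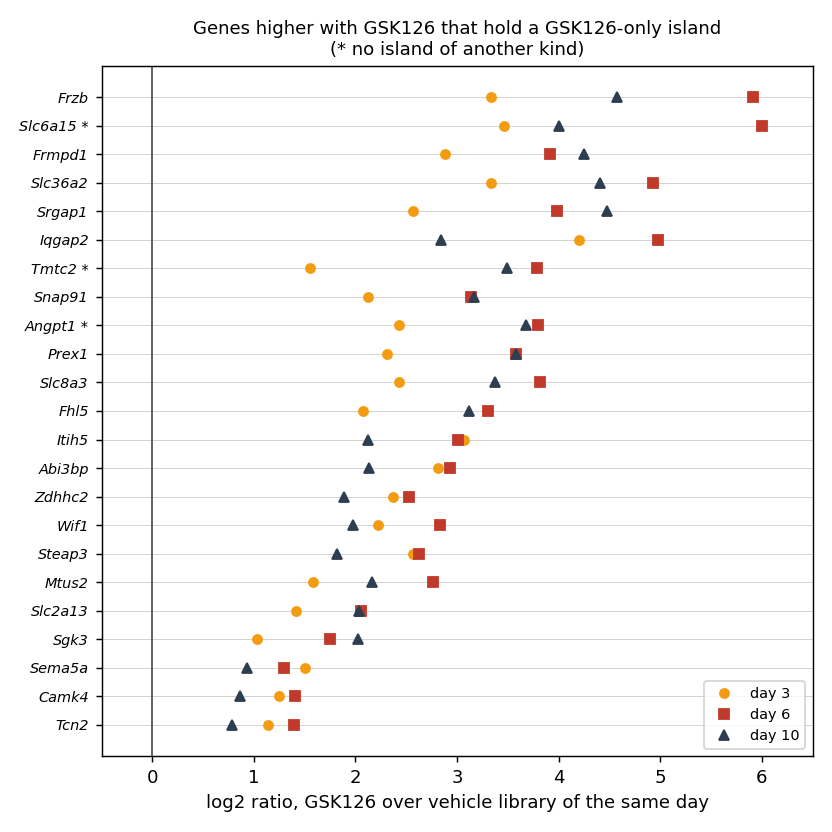
Log2 ratio of GSK126 to vehicle (horizontal axis) on day 3, day 6 and day 10 for the 23 genes (vertical axis) at GSK126-only islands called higher by edgeR, from 1 library per treatment and day. All points lie above 0, which the choice of genes by this test largely requires. Asterisks mark Slc6a15, Tmtc2 and Angpt1, which hold no island of another kind.

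The calls rest on few libraries. Without day 6 the test called 4 of 463 genes higher (Abi3bp, Slc36a2, Slc8a3 and Wif1), and without day 10 it called 1 of 471 (Abi3bp). With no day term it called 0 of 456. The rate over all genes was not computed in these settings, so fewer calls here cannot be told from fewer calls among all genes. The 48 GSK126-only islands at the 23 genes had a median fold of 2.0 and a range of 1.32 to 3.78, much like the class.

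Gene families fixed as lists fell under the islands to different extents, and the shares are read beside 5.84% of all genes under a GSK126-only, 9.40% under a shared and 11.4% under a vehicle-only island. Developmental regulators known as Polycomb targets (Hox, Pax, Sox, Tbx and the like) numbered 93, of which 4 (4.30%) lay under a GSK126-only island, 17 (18.3%) under a shared and 15 (16.1%) under a vehicle-only island. The 4 were Hoxd3 (65 ChIP and 47 input reads, 2.30-fold), Pax5 (93 and 82 reads, 1.89-fold), Wt1 (66 and 34 reads, 3.23-fold) and Tbx20 (2 islands, 2.46- and 1.94-fold). All of the 4 also held shared islands. Hoxd3 and Wt1 had 0 counts in all 6 libraries, and Tbx20, the 1 gene of the 4 that was tested, had a log2 difference of -0.08 (edgeR adjusted p = 0.947). No osteoblast gene of 16 and no PRC2 or H3K27 enzyme gene of 9 lay under a GSK126-only island. In lists this short, a count of 0 is near the 5.84% of all genes. Every list was counted on the 17 chromosomes kept only, so listed genes on other chromosomes were not examined.

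Most lists had a lower share under GSK126-only than under shared islands, and zinc finger genes named Zfp had a higher one, as protocadherin genes did. A GSK126-only island lay at 39 of 338 (11.5%), a shared one at 29 (8.58%) and a vehicle-only one at 13 (3.85%). Zfp37, whose island chr4:62188401-62196000 had the third most ChIP reads of the class (161, with 135 input reads, 1.98-fold), is one of them. Of the 39, 32 passed the filter and edgeR called 0 higher or lower, where the rate over all genes tested was 1.01% higher and 0.272% lower, so a count of 0 is near that rate. At an unadjusted p below 0.05, 1 was higher and 6 lower (3.12% and 18.8%, beside 9.86% and 9.75% of all genes), and DESeq2 called 1 of 34 higher. Many Zfp genes have similar neighbours, where reads may be placed at either copy. Whether this bears on the shares was not tested. Solute carrier genes lay under a GSK126-only island at 39 of 320 (12.2%), under a shared one at 16.9% and under a vehicle-only one at 22.5%. Only 13 of the 39 passed the filter, and 4 of the 13 were called higher (Slc6a15, Slc36a2, Slc8a3 and Slc2a13). The rate of higher calls was 1.01% over all genes tested and 5.04% over all those tested at GSK126-only islands. Protocadherin genes numbered 21 of 69 (30.4%) under 7 GSK126-only islands, 2 (2.90%) under shared and 4 (5.80%) under vehicle-only islands, but most are transcripts that share a body in the clusters on chromosome 18, so 1 island at chr18:37118001-37126000 (105 ChIP and 75 input reads, 2.33-fold) is counted for 14 of them. The smallest adjusted p-value of the class, 1.04e-48, was in the same clusters, at chr18:37530001-37537000 (133 and 43 reads, 5.15-fold). Olfactory receptor genes lay under GSK126-only islands at 15 of 1024 (1.46%) and keratin genes at 2 of 107 (1.87%). No p-value is given for these shares, and gene length differs between families.

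There were 6 genes at 1 RPKM or more in vehicle on day 3 with their start inside a GSK126-only island. Besides Grb10 and Scoc they were Fmn1, Nnat, Cdc14a and Rnf220. Fmn1, a formin gene, had 7.34 RPKM with vehicle and 5.69 RPKM with GSK126 on day 3, and Nnat, the imprinted neuronatin gene, had 3.68 and 3.49. Neither differed by the test (edgeR adjusted p = 0.312 and 0.869). In Rnf220, a ubiquitin ligase gene, the vehicle library of day 6 stood apart at 53.7 RPKM, beside 11.8 and 9.92 on days 3 and 10 and 9.15 to 11.7 with GSK126. The deposited table gives 1 value per gene, so the transcript that starts in the island cannot be told from others of the gene.

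The RNA libraries held 97291878 to 111537936 counts. The 8 osteoblast lineage markers were present in every library (0.908 to 6039.6 RPKM), and the markers of adipocytes, blood, endothelium, neurons and hepatocytes all stayed below 1 RPKM. Skeletal muscle markers reached at most 1.35 RPKM. Of 3 chondrocyte markers, 1 (Col2a1) reached 89.9 RPKM and the other 2 stayed below 1.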

How the data were processed

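H3K27me3 ChIP and input libraries (1 of each per treatment) and 6 RNA libraries of MC3T3 cells were used. Per the submitters' processing notes, the tools were CASAVA 1.9, BWA 0.5.9, SICER 1.1, TopHat2 2.0.6 and HTSeq 0.5.3p9, with build mm10. SICER's settings are not given in the labels or files used, and all island borders fall on a 200 bp grid. Each deposited island carries raw read counts of ChIP and of input, a p-value, the same p-value adjusted, and a fold, which is the ratio of the counts divided by a constant of the list. The authors also deposited gene counts and RPKM in 1 table. Every gene count was even, so fragments may be counted as 2 reads.

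The islands, gene lists and tests were chosen with earlier results of these data known. Island starts were converted to 1-based positions. Genes are those of the deposited table, less 330 rows (260 on the chromosomes used) whose span exceeds 2 RefSeq lengths of the symbol by 10 kb, or 500 bp for a microRNA, because they join several copies. This was decided after seeing the data. Counting intervals of fold are exact binomial (Clopper-Pearson, 95%).

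Gene counts were fitted with edgeR 4.0.16 in R 4.3.3 (TMM, filterByExpr, day plus treatment, quasi-likelihood F test, Benjamini-Hochberg, threshold 0.05), leaving 2 residual degrees of freedom. The labels name no separate cultures, so the spread behind each p-value is that between these libraries and may be technical. The fit was tested on simulated counts. DESeq2 1.42.0 was an alternative. Named genes are all that passed the test, the 8 with the highest level, the 10 with the most islands and the listed genes under an island. Named islands are those at the ends of fold, reads and length and at the edges of the rule.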

Additional observations from a re-analysis of the deposited data

How the results depend on the processing

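The count of 6269 islands depended on what counts as shared. It was 9825 when up to 50% of the length could be shared, 3134 when a vehicle island within 10 kb counted as shared, and 3727 at an adjusted p of 1e-06 or less in the GSK126 list. It stayed within 1.5 times under the other 4 settings (5594 to 8818). The median fold was 2.32 at that stricter adjusted p, 2.0 with 1 read added to each input and 1.96 without islands within 10 kb of a vehicle island. The share of islands in a gene was 35.6% with 5 kb added to gene bodies and 2.29% for starts within 1 kb. Under 2 settings added after seeing the data, with all gene rows as deposited the share was 36.6% and with RefSeq genes of any kind 45.4%. The median level was 0.0148 RPKM over genes with any count.

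Genes called higher numbered 76 with DESeq2 (11 lower) and 36 of 921 without the filter. They numbered 0 with no day term, 0 of 38 with starts within 1 kb and 3 of 140 at no other island. Rates over all genes were computed only for the main fit and DESeq2. Leaving out 1 day gave 1 to 25 higher and 0 to 1 lower (Rbms3, without day 3). The median log2 difference was 0.22 with DESeq2 and 0.23 without the filter. It reversed to -0.046 for starts within 1 kb and to -0.0375 for genes at no other island, and lay between 0.07 and 0.16 with 1 day left out. The cause was not tested. TMM, RLE and library-size scaling gave 23, 24 and 26 genes higher and 0 lower. The day term pairs GSK126 with vehicle within each day, and the fit has no other pairing. At a median of 64 ChIP reads, the counting interval of a single island's fold is wide.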
